A study of Homo sapiens with 8 samples.

Results

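The genes described here are FLT3, its ligand gene FLT3LG, and the receptor genes CSF1R, CSF2RB, CSF3R, IL6R, IL10RA and EPOR, measured in MOLM-13, an established line of human acute myeloid leukemia cells. They were taken by name, as a list of 8 genes out of 58735 gene IDs in the count tables. The study asked how MOLM-13 acquires resistance to busulfan, a DNA-alkylating agent, and the libraries used here come from cells that never received it. MOLM-13 parental cells (untreated, replicate 2) were compared with cells given 1, 3 or 5 courses of 1% dimethyl sulfoxide (DMSO), the vehicle, with 1 library for each. The busulfan cultures, exposed for 6 h per course at 25 to 200 µM, and parental replicate 1 were not analysed here. The labels allow up to 20 passages for parental cells and up to 60 for busulfan-resistant cells but give no number for the DMSO cultures, so DMSO exposure and time in culture cannot be told apart. Only this cell line was sampled, each state has 1 library, and no difference below has a replicate at its own course.

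FLT3 and CSF1R are receptor tyrosine kinases of class III, which dimerise on binding FLT3 ligand or CSF1 (macrophage colony-stimulating factor) and signal through RAS, PI3 kinase and STAT5. MOLM-13 is known for an internal tandem duplication in FLT3 that makes the kinase active without ligand, and gene counts do not tell that allele from the normal one. CSF2RB, CSF3R, IL6R and EPOR are class I cytokine receptor chains and IL10RA is a class II chain. These have no kinase of their own and work through JAK kinases and STAT factors. CSF2RB is the beta chain shared by the receptors for GM-CSF, IL-3 and IL-5, CSF3R binds G-CSF, and EPOR binds erythropoietin, the hormone of red cell production. IL6R needs the signalling chain IL6ST (gp130), and IL10RA needs IL10RB.

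The start regions of CSF1R, IL10RA, FLT3 and EPOR are shown because CSF1R and IL10RA had the largest drops between course 1 and the later courses, FLT3 had the highest level, and EPOR shared the direction of CSF1R and IL10RA. They were chosen with those values known. The sequences are RefSeq entries on GRCh38.p14, each running from 250 bases before a start site to 50 bases from it on, and 7 of the 8 genes matched 10 such windows. Capitals mark the letters searched on both strands for 5 motifs of blood cell factors: GAGGAA for PU.1, AGATAA for GATA factors, TGTGGT for RUNX factors, TTCNNNGAA for STAT factors and TTGCNNAA for C/EBP factors. The CSF1R window is chr5:150086505-150086804 on the minus strand, the IL10RA window chr11:117989695-117989994 on the plus strand, the FLT3 window chr13:28100527-28100826 on the minus strand and the EPOR window chr19:11384265-11384564 on the minus strand.
CSF1R: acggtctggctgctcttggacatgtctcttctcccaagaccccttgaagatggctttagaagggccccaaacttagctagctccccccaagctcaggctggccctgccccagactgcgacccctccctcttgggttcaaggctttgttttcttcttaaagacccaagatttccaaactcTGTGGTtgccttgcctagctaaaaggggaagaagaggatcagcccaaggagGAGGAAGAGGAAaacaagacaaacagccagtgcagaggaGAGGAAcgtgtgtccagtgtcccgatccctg
IL10RA: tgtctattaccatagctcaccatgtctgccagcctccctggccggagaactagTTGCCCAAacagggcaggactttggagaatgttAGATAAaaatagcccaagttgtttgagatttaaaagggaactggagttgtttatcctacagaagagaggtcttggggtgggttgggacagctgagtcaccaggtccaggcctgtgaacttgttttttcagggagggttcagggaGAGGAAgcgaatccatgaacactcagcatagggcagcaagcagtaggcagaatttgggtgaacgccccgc
FLT3: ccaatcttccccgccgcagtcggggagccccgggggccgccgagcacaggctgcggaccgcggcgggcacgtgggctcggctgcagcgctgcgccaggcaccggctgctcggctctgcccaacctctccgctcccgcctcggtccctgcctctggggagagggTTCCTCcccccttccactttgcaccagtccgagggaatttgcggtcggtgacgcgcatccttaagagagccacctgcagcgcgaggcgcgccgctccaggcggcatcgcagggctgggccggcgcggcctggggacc
EPOR: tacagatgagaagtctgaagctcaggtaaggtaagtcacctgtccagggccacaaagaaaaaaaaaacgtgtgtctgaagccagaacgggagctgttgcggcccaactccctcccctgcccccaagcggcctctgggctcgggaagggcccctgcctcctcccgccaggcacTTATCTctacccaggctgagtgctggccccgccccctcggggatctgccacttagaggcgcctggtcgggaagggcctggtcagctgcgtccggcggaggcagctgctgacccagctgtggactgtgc
GAGGAA lay at bases -20 to -15 in both CSF1R and IL10RA, counted from the start site. In CSF1R another copy abutted the first at -14 to -9, a further one lay at 20 to 25 inside the transcript, and TGTGGT lay at -71 to -66. IL10RA also held AGATAA at -164 to -159 and TTGCNNAA at -197 to -190. FLT3 held GAGGAA on the opposite strand at -87 to -82, printed above as its reverse complement, and EPOR held AGATAA on the opposite strand at -78 to -73. None of the marked matches overlapped another.

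**Figure D1:**
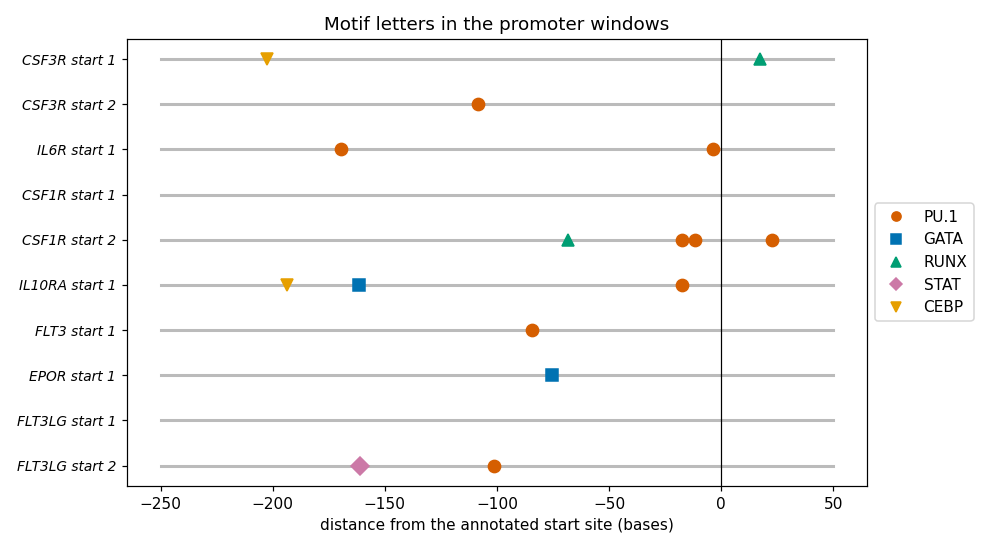
Motif letters in the RefSeq start regions. The x axis is the distance in bases from each start site, each line is 1 window of 300 bases, and marks show where the letters of 5 motifs lie on either strand. The printed CSF1R window (start 2) and IL10RA carry GAGGAA just before the start, while the other CSF1R window (start 1) and FLT3LG start 1 carry no match.

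Such short letters are common. GAGGAA was present in 27.9% of 35114 RefSeq promoters of the same length and in 6 of the 10 windows of these genes. AGATAA was present in 10.3% of promoters and 2 windows, TGTGGT in 13.1% and 2 windows, TTCNNNGAA in 7.66% and 1 window, and TTGCNNAA in 10.5% and 2 windows. A second CSF1R start region, upstream of the one printed (chr5:150113316-150113615), held no match. Gene counts do not show which start site was used, and a match describes the sequence only.

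The libraries held 44795976 to 56825811 gene counts. Levels are given as CPM, counts per 1000000 after edgeR's TMM scaling of library sizes. Ratios carry 95% intervals that cover counting error only. All 10 markers of an acute myeloid leukemia line (among them CD33, MPO and LYZ) had counts in the 4 libraries, with a summed level of 2176 to 3079 CPM. ANPEP, MPO and CD86, with MEIS1, had the widest ranges, MPO being highest in course 1 (932 CPM) and lowest in course 5 (336 CPM), ANPEP highest in course 1 (43.8 CPM) and lowest in parental cells (11.1 CPM), and CD86 highest in parental cells (14.3 CPM) and lowest in course 3 (7.54 CPM). Of 8 lymphoid markers 5 to 7 had counts (101.4 to 213 CPM, mostly NCAM1), and CD3D had 243, 24, 3 and 4 counts in the parental library and courses 1, 3 and 5. Of 8 stromal and endothelial markers 4 or 5 had counts (133 to 186 CPM, mostly PECAM1). Of 6 epithelial markers 2 to 5 had counts, and their sum was 40.2, 20.3, 12.3 and 10.4 CPM, mostly from KRT18 and KRT8. COL1A1 (186, 108, 10 and 5 counts) and VWF (108, 98, 23 and 13 counts) were low in courses 3 and 5, as CSF1R and IL10RA were. Other members of the stromal and endothelial list went the other way. With the DMSO libraries pooled against the parental one in edgeR, the log2 change was 0.49 for PECAM1 and 5.37 for LUM. For COL1A1 it was -1.75 and for VWF -0.86. The part of these markers in the results was not tested. MS4A1, COL3A1, DCN, CDH5 and KRT19 were at 0 in the 4 libraries. Reads aligned to more than 1 place took 21.3% of the course 5 library and 13.9 to 15.4% of the others, and the part of this in the results was not tested.

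FLT3 was the most abundant of the 8 transcripts. Levels of different genes are compared here as RPKM, which is CPM divided by the exon length in kilobases. The mean over the 4 libraries was 124 RPKM for FLT3 (range 94.3 to 148), 77.3 RPKM for CSF3R (58.1 to 110.2) and 29.7 RPKM for IL6R (26.9 to 32.7). EPOR averaged 13.5 RPKM (9.61 to 19.7), CSF2RB 11.8 RPKM (6.45 to 16.7), CSF1R 7.76 RPKM (4.22 to 11.9) and IL10RA 3.40 RPKM (1.70 to 5.94). FLT3LG was far below, at 0.211 RPKM (0.148 to 0.362). The ranges of FLT3 and CSF3R overlapped, as did those of EPOR, CSF2RB and CSF1R with their neighbours and those of CSF1R and IL10RA. IL6R stood clear of the genes on either side, and so did FLT3LG of IL10RA.

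The order in the middle of this scale differed between libraries. In the parental and course 1 libraries EPOR held the fourth place, CSF1R the fifth and CSF2RB the sixth, while in courses 3 and 5 CSF2RB was the fourth, EPOR the fifth and CSF1R the sixth. FLT3, CSF3R and IL6R led in that order in each library, with IL10RA and FLT3LG last. With the longest transcript as the length, the order of the means was the same, but in course 1 CSF3R (153 RPKM) stood above FLT3 (135 RPKM).

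**Figure D2:**
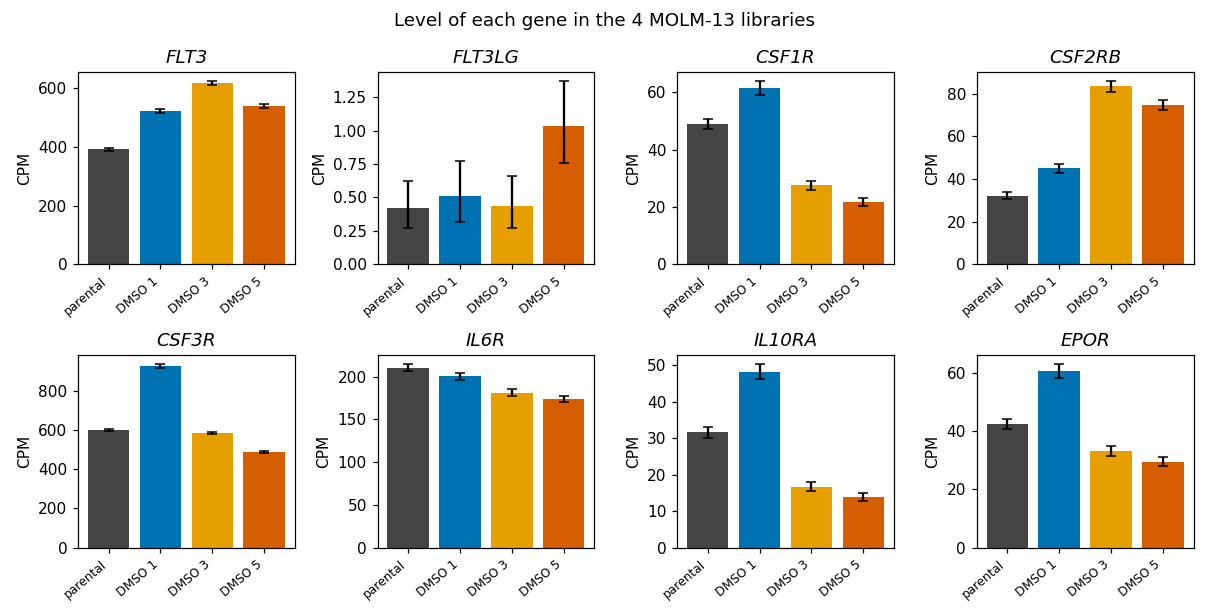
Level of each gene in the 4 libraries. The y axis of each panel is CPM from 0, the bars are the parental library and DMSO courses 1, 3 and 5 (1 library each), and the error bars are 95% Poisson intervals for counting error. CSF1R, IL10RA, CSF3R and EPOR are highest in course 1 and lowest in course 5, while CSF2RB and FLT3 are highest in course 3 and lowest in the parental library.

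FLT3 (ENSG00000122025) was higher in each DMSO library than in the parental cells. Its level was 392 CPM (23205 counts) in parental cells, 520.3 CPM after 1 course, 617 CPM after 3 and 539 CPM after 5. Relative to parental cells, the log2 ratio was 0.41 (95% counting interval 0.38 to 0.44) after 1 course, 0.65 (0.63 to 0.68) after 3 courses and 0.46 (0.43 to 0.49) after 5. The 3 DMSO levels lay above the single parental level, and none was 2-fold from it.

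The gene of its ligand, FLT3LG (ENSG00000090554), was barely detected. It had 25, 22, 22 and 47 counts in the parental library and courses 1, 3 and 5, or 0.423, 0.511, 0.438 and 1.03 CPM. Course 5 was higher than the other libraries, with a log2 ratio to the parental library of 1.29 (0.56 to 2.05). For courses 1 and 3 the interval included a ratio of 1. Annotated exons of FLT3LG share 338 and 800 bases on the same strand with AC010619.1 and AC010619.2, and reads there count for no gene, so its level is uncertain. FLT3 stood 358 to 964 times as high as FLT3LG in RPKM, and 177 to 477 times with the longest transcript as the length.

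CSF1R (ENSG00000182578), the receptor that drives monocyte and macrophage growth, was highest in course 1 and low in the later courses. Its level was 49.0 CPM in parental cells, 61.5 CPM after 1 course, 27.5 CPM after 3 and 21.7 CPM after 5. Its log2 ratio to parental cells was 0.33 (0.25 to 0.40) after 1 course, -0.83 (-0.93 to -0.74) after 3 courses and -1.17 (-1.28 to -1.07) after 5. Between course 1 and course 5 the level was 2.83-fold lower (log2 ratio -1.50, -1.61 to -1.40). The parental and course 1 libraries thus lay together above courses 3 and 5. In bulk RNA, fewer cells that express a gene and less RNA per cell cannot be told apart. RPL7P1, a ribosomal protein pseudogene on the opposite strand within the CSF1R locus, had 9784, 7639, 10128 and 11319 counts in the 4 libraries and shares no annotated exon base with it. CSF1, the ligand gene, stood at 1.57, 1.02, 1.57 and 1.34 CPM. Set against FLT3 within a library, CSF1R was 9.91 and 10.5 times lower in RPKM in the parental and course 1 libraries and 27.8 and 30.8 times lower in courses 3 and 5.

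CSF2RB (ENSG00000100368), the shared beta chain, was high in the later courses. Its level was 32.2 CPM in parental cells, 45.02 CPM after 1 course, 83.4 CPM after 3 and 74.8 CPM after 5. On the log2 scale, the ratio to parental cells was 0.48 (0.39 to 0.57) after 1 course, 1.37 (1.29 to 1.45) after 3 courses and 1.21 (1.13 to 1.30) after 5. Courses 3 and 5 were thus 2.59-fold and 2.32-fold above the parental level, with course 1 in between. Some genes lay at least as far from the parental level as CSF2RB, in either direction. Of the 10710 genes averaging 5 CPM or more, these were 34.9% in course 1, 2.43% in course 3 and 5.21% in course 5.

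The alpha chains that pair with CSF2RB followed other orders. CSF2RA, the GM-CSF receptor alpha chain, stood at 10.98, 19.3, 16.2 and 15.9 RPKM in the parental library and courses 1, 3 and 5. IL3RA, the IL-3 receptor alpha chain (CD123), stood at 84.2, 104.3, 75.8 and 65.0 RPKM. The RPKM of CSF2RB divided by that of CSF2RA was 0.587 and 0.466 in the parental and course 1 libraries and 1.03 and 0.943 in courses 3 and 5. Divided by IL3RA it was 0.0766, 0.0864, 0.2202 and 0.230. With the union of exons as the length, the beta chain was thus near the level of CSF2RA in courses 3 and 5. With the longest transcript as the length, CSF2RB divided by CSF2RA was 0.361, 0.286, 0.633 and 0.580, below 1 in each library. The beta chain was below IL3RA in each library with either length. CSF2RA and IL3RA lie in the region shared by the X and Y chromosomes, where reads may align to both copies, so their levels are uncertain. IL5RA, the IL-5 receptor alpha chain, was at most 0.0665 RPKM. It had 4, 13, 19 and 20 counts in the parental library and courses 1, 3 and 5, and like CSF2RB was lowest in the parental library.

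**Figure D3:**
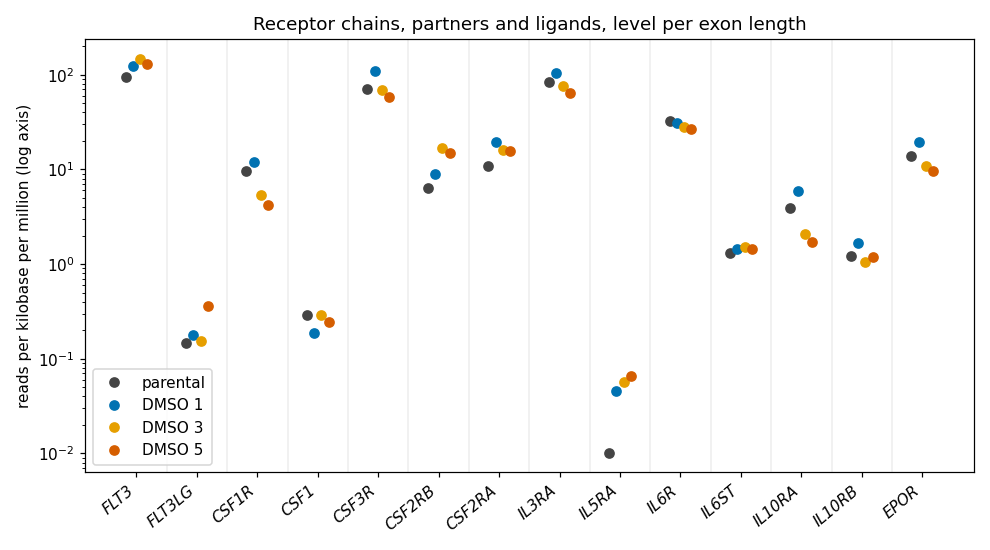
Receptor chains and the ligand or chain each works with. The y axis is RPKM on a log scale, the x axis lists the genes, and each point is 1 library (parental or DMSO course 1, 3 or 5). IL3RA lies above CSF2RB throughout, and IL6ST lies below IL6R in each library. CSF2RB lies near CSF2RA in courses 3 and 5 with the union of exons as the length, as plotted.

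CSF3R (ENSG00000119535), the receptor for the main growth factor of neutrophils, was highest in course 1. Its level was 603 CPM in parental cells, 929 CPM after 1 course, 587 CPM after 3 and 489 CPM after 5. Set against parental cells, the log2 ratio was 0.62 (0.60 to 0.64) after 1 course, -0.04 (-0.06 to -0.02) after 3 courses and -0.30 (-0.33 to -0.28) after 5. Course 1 therefore lay above the other 3 libraries, and the log2 ratio of course 5 to course 1 was -0.92 (-0.95 to -0.90). The RPKM of CSF3R was 0.758 and 0.881 of that of FLT3 in the parental and course 1 libraries and 0.469 and 0.448 of it in courses 3 and 5.

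IL6R (ENSG00000160712), the ligand-binding chain for interleukin 6, varied least. Its level was 211 CPM in parental cells, 200.4 CPM after 1 course, 181 CPM after 3 and 174 CPM after 5. Its log2 ratio to parental cells was -0.07 (-0.11 to -0.03) after 1 course, -0.22 (-0.26 to -0.18) after 3 courses and -0.28 (-0.32 to -0.24) after 5. The highest level was 1.21 times the lowest. The signalling chain IL6ST stood at 1.31, 1.43, 1.51 and 1.43 RPKM, so IL6R was 18.6 to 25.0 times as high. The antisense gene IL6R-AS1, on the other strand, had 29, 70, 53 and 34 counts.

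IL10RA (ENSG00000110324), the ligand-binding chain for the anti-inflammatory cytokine interleukin 10, had the widest range of the 8. Its level was 31.6 CPM in parental cells, 48.2 CPM after 1 course, 16.7 CPM after 3 and 13.8 CPM after 5. In log2 units the ratio to parental cells was 0.61 (0.52 to 0.70) after 1 course, -0.92 (-1.03 to -0.80) after 3 courses and -1.20 (-1.33 to -1.06) after 5. Between course 1 and course 5 IL10RA was 3.50-fold lower (log2 ratio -1.80, -1.94 to -1.68). As for CSF1R, the parental and course 1 libraries were high and courses 3 and 5 low. The partner chain IL10RB stood at 1.23, 1.65, 1.06 and 1.18 RPKM. The ratio of IL10RA to it was 3.17, 3.60, 1.96 and 1.44 in the parental library and courses 1, 3 and 5. With the longest transcript as the length the ratio was 1.79, 2.04, 1.11 and 0.814, so in course 5 IL10RA was below IL10RB.

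EPOR (ENSG00000187266) had the same order of libraries as CSF3R, CSF1R and IL10RA. Its level was 42.4 CPM in parental cells, 60.7 CPM after 1 course, 33.2 CPM after 3 and 29.6 CPM after 5. Relative to parental cells, the log2 ratio was 0.52 (0.44 to 0.60) after 1 course, -0.35 (-0.44 to -0.26) after 3 courses and -0.52 (-0.62 to -0.42) after 5. The log2 ratio of course 5 to course 1 was -1.04 (-1.13 to -0.94), and with library sizes taken as total gene counts it was -0.97, short of 2-fold. Of 11 erythroid and megakaryocyte markers, 3 or 4 had counts, with a summed level of 3.05 to 8.68 CPM, and HBA2, HBG1, ALAS2 and PF4 were at 0 in the 4 libraries. ITGA2B, of that list, stood at 4.597, 8.03, 3.86 and 2.37 CPM.

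**Figure D4:**
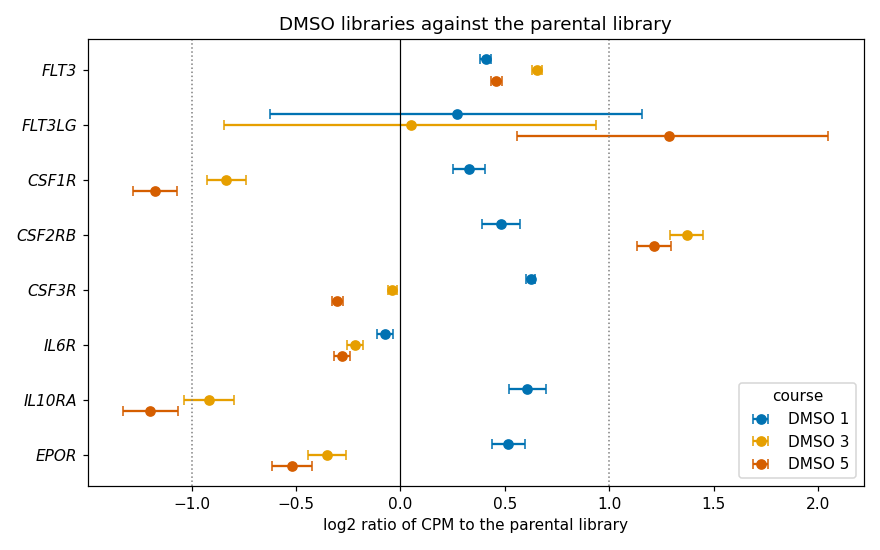
Log2 ratio of each gene to the parental library. The x axis is the log2 ratio of CPM in DMSO courses 1, 3 and 5 (1 library each), the bars are 95% binomial intervals for counting error, and dotted lines mark 2-fold. CSF2RB lies beyond 2-fold in courses 3 and 5, and CSF1R and IL10RA lie beyond it on the low side in course 5.

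Against the parental library, course 1 had higher levels of 6 of the 7 genes averaging 5 CPM or more, and courses 3 and 5 had lower levels of 5 of 7. FLT3LG was under that level and was left out of these counts. Over the 7 genes the median log2 ratio was 0.48 after 1 course, -0.22 after 3 courses and -0.30 after 5, and over all 10710 genes it was 0.02, 0.01 and 0.03. The 3 comparisons share the parental library.

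In course 1, 0 genes of the list were at least 2-fold higher than in the parental library and 0 were lower, where 3.7% of the 10710 genes were higher and 4.19% lower. In course 3, 1 gene was at least 2-fold higher (CSF2RB), where 2.23% of genes were, and 0 were lower, where 2.34% were. In course 5, 1 gene was higher (CSF2RB), where 2.96% of genes were, and 2 were lower (CSF1R and IL10RA), where 4.92% were. With total gene counts as library sizes, all log2 ratios of course 1 shifted by -0.11, and the split over all genes was 283 higher and 664 lower in place of 396 and 449. The counts for these 7 genes against the parental library were the same with that scaling.

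For CSF1R, CSF3R, IL10RA and EPOR, courses 3 and 5 lay farther from course 1 than from the parental library. For FLT3, CSF2RB and IL6R they lay nearer to course 1. Against course 1, course 3 had 2 genes at least 2-fold lower (CSF1R and IL10RA), where 4.82% of genes were, and 0 higher, where 3.9% were. Course 5 had 3 genes lower than course 1 (CSF1R, IL10RA and EPOR), where 9.08% of genes were, and 0 higher, where 7.14% were. The median log2 ratio of the 7 genes between courses 5 and 1 was -0.92, and over all genes it was 0.05. Between courses 5 and 3 the 7 genes lay between -0.06 and -0.34, and 0 were 2-fold apart, where 0.0747% of genes were higher and 0.915% lower.

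The range over the 4 libraries was also taken for each gene. The highest level was at least 2 times the lowest for CSF1R, CSF2RB, IL10RA and EPOR, which is 4 of the 7 genes, and for 21.4% of the 10710 genes. The median over all genes was 1.52 times. CSF3R (1.90 times), FLT3 (1.57 times) and IL6R (1.21 times) were under 2.

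**Figure D5:**
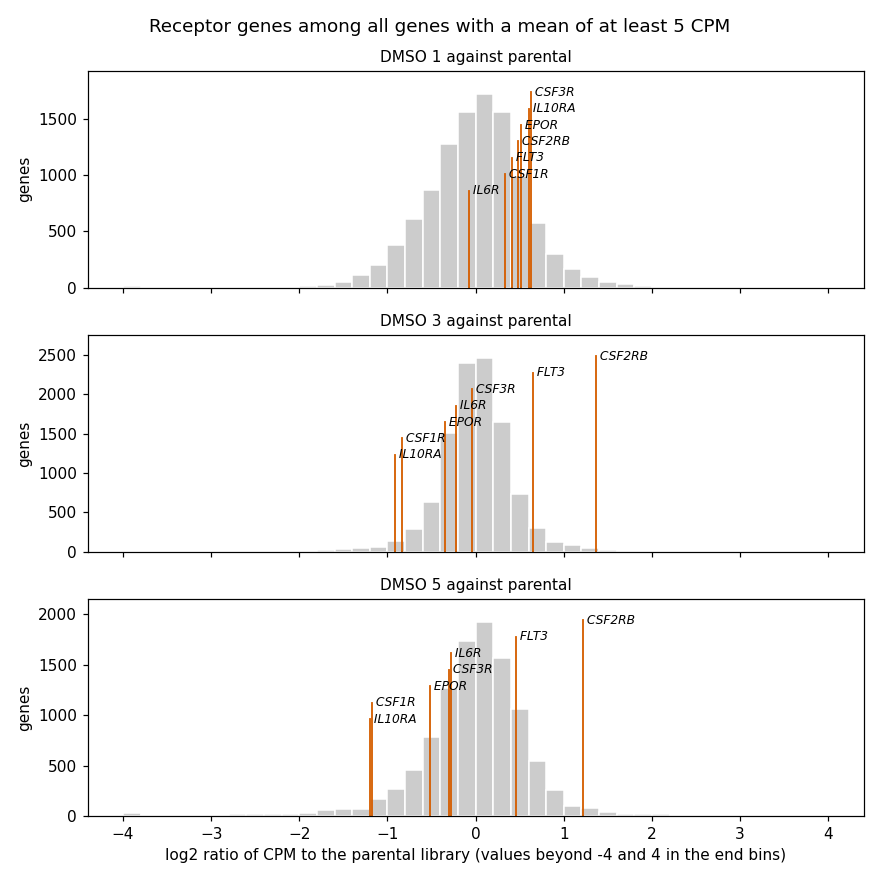
Where the genes lie among all genes. The x axis is the log2 ratio to the parental library in DMSO courses 1, 3 and 5, the y axis is the number of the 10710 genes averaging 5 CPM or more in each bin, and vertical lines mark the 7 receptor genes of the list above that level (their heights only space the names). In course 1 IL6R alone of them lies below 0, and in courses 3 and 5 FLT3 and CSF2RB alone lie above it.

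None of the 8 genes passed edgeR's test over the 4 libraries. The pooled test set the 3 DMSO libraries against the parental one, and edgeR's quasi-likelihood test (p adjusted by Benjamini-Hochberg) called 0 of 18612 genes, or 0%, with 1045 at an unadjusted p under 0.05. limma-voom called 0 genes and DESeq2 called 211, with 0 of the 8 in either. In edgeR 0 of the 8 had an unadjusted p under 0.05, and their adjusted p ran from 0.899 to 0.999. CSF2RB had the largest pooled log2 change, 1.07 (SE 0.42, edgeR adjusted p = 0.899), and FLT3 had 0.51 (SE 0.24, edgeR adjusted p = 0.928). Both were higher in 3 of 3 DMSO libraries. For CSF1R (-0.41, SE 0.61) and IL10RA (-0.27, SE 0.76) course 1 and the later courses lay on opposite sides of the parental level.

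Pooled fits without course 1, 3 or 5 tested 18377, 18295 and 18467 genes. The outcome of the pooled test depended on the course 1 library. Without it, the pooled edgeR fit called 1578 genes and 3 of the list, with 1 residual degree of freedom. They were CSF2RB (log2 change 1.30, edgeR adjusted p = 0.00157), IL10RA (-1.05, edgeR adjusted p = 0.00801) and CSF1R (-0.99, edgeR adjusted p = 0.00883). Without course 3 the fit called 25 genes and without course 5 it called 31, with 0 of the list in both.

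The trend test fitted a slope over 0, 1, 3 and 5 courses. edgeR called 0 of 18612 genes, or 0%, with 2940 at an unadjusted p under 0.05, while limma-voom called 0 and DESeq2 880. CSF1R (slope -0.30 log2 units per course, SE 0.07, edgeR adjusted p = 0.21), CSF2RB (0.26, SE 0.08, edgeR adjusted p = 0.244) and IL10RA (-0.34, SE 0.10, edgeR adjusted p = 0.249) were the 3 of the list with an unadjusted p under 0.05. EPOR had a slope of -0.17 (SE 0.07), CSF3R of -0.12 (SE 0.07), FLT3 of 0.08 (SE 0.06), IL6R of -0.06 (SE 0.04) and FLT3LG of 0.23 (SE 0.12), with edgeR adjusted p from 0.349 to 0.515. With the same 4 libraries, DESeq2 called CSF1R (adjusted p = 0.0193) and IL10RA (adjusted p = 0.0339).

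With the parental library left out of the slope, edgeR called 3642 genes and 4 of the list. These were CSF1R (slope -0.38, edgeR adjusted p = 0.00515), IL10RA (-0.46, edgeR adjusted p = 0.00562), CSF3R (-0.24, edgeR adjusted p = 0.0128) and EPOR (-0.26, edgeR adjusted p = 0.0146). Without course 1 it called 2795 genes and CSF1R, CSF2RB and IL10RA, without course 3 it called 32 and without course 5 it called 5, with 0 of the list in the last 2. Each of these fits had 1 residual degree of freedom. They tested 15595 genes without the parental library and 18377, 18295 and 18467 without course 1, 3 or 5.

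Among the other class I receptor chains, IL2RG was the gene with the widest range. It encodes the gamma chain shared by receptors for IL-2, IL-7 and related cytokines, and it stood at 24.0, 2.76, 0.916 and 0.746 CPM in the parental library and courses 1, 3 and 5. The log2 ratio to the parental library was -3.12, -4.71 and -5.01, and the pooled change was -4.03 (SE 0.73, edgeR adjusted p = 0.44), lower in 3 of 3 DMSO libraries. Thymic stromal lymphopoietin receptor gene CRLF2 (9.18, 8.24, 4.72 and 3.05 CPM), which also lies on X and Y, and IL7R (8.72, 9.03, 12.5 and 3.40 CPM) were low in course 5. PRLR stood at 1.59, 2.55, 6.43 and 2.39 CPM. By course, 2.23 to 3.7% of the 10710 genes were 2-fold higher than the parental library and 2.34 to 4.92% lower. These are the shares to set beside this list and those below. Of 20 listed chains 13 had a mean of at least 5 CPM. Against the parental library 1 of them was 2-fold lower in course 1, 1 higher and 1 lower in course 3, and 1 higher (IL12RB1) and 3 lower in course 5, with medians of 0.05, 0.16 and -0.32. edgeR called 0 of 16 tested chains in the pooled test and 0 in the trend, with 4 at an unadjusted p under 0.05 in each.

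The other class II chains were close to the parental level in the later courses. Of 9 listed, 5 averaged 5 CPM or more. Of these, 1 was 2-fold higher in course 1, where 3.7% of the 10710 genes were. It was the interferon lambda receptor gene IFNLR1 (4.597, 16.4, 6.23 and 5.16 CPM). IFNAR2, a chain of the type I interferon receptor, stood at 37.2, 72.9, 48.0 and 38.6 CPM. The list's medians were 0.43, -0.03 and 0.00, and edgeR called 0 of 7 tested chains in either test, with 0 at an unadjusted p under 0.05.

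Class III kinases other than FLT3 and CSF1R were at the edge of detection. KIT, the stem cell factor receptor, had 33, 6, 4 and 2 counts, PDGFRB had 84, 47, 37 and 30, and PDGFRA had 3 counts in the parental library and 0 in the others. For KIT the log2 ratio of course 5 to the parental library was -3.67, with a counting interval from -6.77 to -1.70. edgeR called 0 of the 2 tested in either test, with 1 at an unadjusted p under 0.05 in each. Ligand genes were low as well: of 15 listed, 1 had a mean of at least 5 CPM, and CSF2, IL3, THPO and IFNG were at 0 in the 4 libraries. The 1 was OSM, encoding oncostatin M, at 5.88, 10.6, 12.1 and 10.6 CPM. Here edgeR called 0 of 6 tested, with 1 at an unadjusted p under 0.05 in each test.

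Of 11 JAK and STAT genes below the receptors, 9 had a mean of at least 5 CPM. Of these, only STAT2 in course 1 was 2-fold from the parental library (151, 318, 152 and 126 CPM). In that course 3.7% of the 10710 genes were 2-fold higher. STAT6 (457, 640.1, 402 and 335 CPM) and TYK2 (397, 430.1, 284 and 235 CPM) were highest in course 1 as well. JAK2, the kinase that serves EPOR and CSF2RB, stood at 26.7, 35.2, 39.6 and 33.6 CPM. The list's medians were 0.31, 0.20 and 0.22. edgeR called 0 of 10 tested in either test, with 0 at an unadjusted p under 0.05 in the pooled test and 1 in the trend.

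Among 12 adaptor and RAS or PI3 kinase entry genes above the mean of 5 CPM, out of 13, SOS1 was 2-fold higher in courses 3 and 5. SOS1, the exchange factor that loads RAS, stood at 103, 159, 264 and 254 CPM. GAB2, an adaptor of PI3 kinase, stood at 90.4, 192, 145 and 176 CPM and was 2-fold higher in course 1. PTPN11, the phosphatase SHP2, stood at 144, 105, 170.4 and 215 CPM, and GAB1, which was under 5 CPM, at 3.70, 1.56, 0.975 and 0.395 CPM. The medians were 0.12, 0.18 and 0.31, and edgeR called 0 of 13 in either test, with 3 and 4 at an unadjusted p under 0.05 in the pooled test and the trend.

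Of 16 listed genes that restrain the receptors, 15 averaged 5 CPM or more. Of these, 0 were 2-fold from the parental library in any course. By course, 2.23 to 3.7% of the 10710 genes were higher and 2.34 to 4.92% lower. SOCS3, which blocks JAKs at gp130 and CSF3R, stood at 9.26, 17.4, 11.2 and 6.30 CPM, and CISH, a STAT5 target, at 67.3, 121, 124 and 97.1 CPM. SOCS1 stood at 5.83, 9.89, 5.24 and 5.62 CPM, SLA2 at 1.81, 1.32, 1.19 and 0.680 CPM, and SH2B3, the adaptor LNK, at 53.0, 33.9, 61.6 and 62.8 CPM. The medians were 0.29, 0.01 and 0.00, and edgeR called 0 of 16 in either test, with 1 at an unadjusted p under 0.05 in each. ADAM17, a protease that sheds IL6R and CSF1R, stood at 45.8, 35.7, 49.6 and 56.9 CPM, ADAM10 at 142, 194, 193 and 191 CPM, and RHBDF2, a cofactor of ADAM17, at 31.8, 45.4, 21.8 and 18.3 CPM. These 3 had medians of 0.46, 0.11 and 0.31, and edgeR called 0 of 3 in either test, with 0 and 1 at an unadjusted p under 0.05.

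Of 12 myeloid transcription factor genes known to act on these receptor genes, 9 were above the mean. GATA2 was 2-fold higher in each DMSO library (88.1, 281, 370 and 339 CPM) and MEIS1 2-fold lower in courses 3 and 5 (69.2, 48.8, 32.7 and 30.8 CPM). SPI1, which encodes PU.1, stood at 241, 350.4, 262 and 252 CPM, RUNX1 at 172, 202, 266 and 250.2 CPM, CEBPA at 492, 619, 637 and 737 CPM, and CEBPE at 2.82, 6.75, 3.10 and 2.52 CPM. SPI1 was highest in course 1 and stood above the parental level in courses 3 and 5. Any link between these factors and the receptor genes was not tested. The medians were 0.23, 0.35 and 0.14, and edgeR called 0 of 12 in either test, with 3 and 2 at an unadjusted p under 0.05.

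For each gene of the list, the protein-coding genes with the nearest profile were taken by Euclidean distance of mean-centred log2 CPM over the 4 libraries, among 9594 genes. Nearest to CSF1R were the glycolytic genes PGK1 (distance 0.06) and PKM (0.09), and MYADM (0.10). PGK1 stood at 614, 815, 352 and 276 CPM. Nearest to IL10RA were TMC8 (0.11), DPCD (0.13) and SPON2 (0.14), and nearest to CSF2RB were SYNGR3 (0.13), SOS1 (0.13) and ADGRL3 (0.22).

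Few genes lay as near to CSF2RB and IL10RA, with 2 and 7 genes within a distance of 0.2 and 25 for CSF1R. The flatter genes had many: 736 for IL6R, 270 for CSF3R, 152 for EPOR and 88 for FLT3. Nearest to FLT3 were ALDH4A1, CORO2A and CRTAP (0.06 to 0.07), to CSF3R WBP1, RSRP1 and CCDC159 (0.05), to IL6R ING5, ORMDL3 and MTMR12 (0.01 to 0.02), and to EPOR ADA, SYNGR1 and ACD (0.02 to 0.05).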

How the data were processed

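Bulk RNA from MOLM-13 cells was sequenced after TruSeq RNA library preparation, per the labels' protocols. The authors deposited unnormalised counts of reads for each Ensembl gene ID. The submitters' processing notes name the genome build hg19 and the tools FastQC 0.11.5, HTSeq 0.6p1 and TopHat2 2.0.11. Each of the 58735 gene IDs matched GENCODE release 29, which annotates GRCh38, so the build behind the deposited counts is uncertain and no gene coordinates were taken from them. Counting was reverse-stranded, as far as the names of the deposited files tell. Reads assigned to no gene are held in 5 summary categories (24.57 to 29.81% of reads), which were left out. They include reads aligned to several places (13.86 to 21.33%) and reads in overlapping genes (1.84 to 1.96%).

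The labels put 8 samples in the series, and 4 of them were not analysed here. The labels do not say that the libraries are separate cultures of one state. The p-values thus rest on the spread between these libraries, which mixes course with other differences. No 2 libraries agreed within counting noise.

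The tests ran in R 4.3.3, with edgeR 4.0.16 (TMM, filterByExpr with minimum count 10 and minimum total 15, quasi-likelihood test, adjusted p under 0.05), limma 3.58.1 and DESeq2 1.42.0. Both fits used 18612 genes and had 2 residual degrees of freedom, with the single parental library taken to vary as the DMSO libraries do. Pairs of single libraries were set side by side, untested, by log2 CPM ratio with exact binomial 95% intervals, and genes counted as apart averaged 5 CPM or more, with a ratio of at least 2-fold and an interval without a ratio of 1. RPKM used the union of annotated exons. Functions were checked on simulated data.

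The 8 genes and the other lists were chosen with earlier results of these data known. Named were the 8 genes, up to 4 per list with the widest range among those averaging 1 CPM or more, and the 3 nearest profiles per gene among genes averaging 5 CPM or more. SPI1, CEBPA, JAK2, CISH and IL12RB1 among the listed genes were named outside this rule, after their values were seen. So were some, but not all, of the chains and ligands that pair with a gene of the list. Some genes of the other lists are not reported here by name.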

Additional observations from a re-analysis of the deposited data

How the results depend on the processing

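Small uncalled values changed sign in some alternatives. Without course 1 the pooled log2 change of CSF3R went from 0.15 to -0.16, without course 3 or 5 that of EPOR went from -0.04 to 0.08 or 0.14, and without course 5 that of IL10RA went from -0.27 to 0.04 and the FLT3LG slope from 0.23 to -0.001. With total gene counts FLT3LG in course 3 went from 0.05 to -0.02. With no filter on low counts edgeR called 13 genes in the pooled test and 132 in the trend, and DESeq2 called 211 and 880, with 2 of the 8 genes in the trend. Leaving out 1 library gave 25 to 1578 calls in the pooled test (0 to 3 of the 8 genes) and 5 to 3642 in the trend (0 to 4 of the 8). At 1.5-fold in place of 2-fold, 2 genes were higher than the parental library in course 1 and 0 lower. Of all 10710 genes, 1334 were higher and 1512 lower. In course 3, 2 were higher (695 of all genes) and 2 lower (704). In course 5, 1 was higher (1186) and 2 lower (1303). Course 3 against course 1 had 1 higher (1411) and 4 lower (1356). Course 5 against course 1 had 1 higher (2067) and 4 lower (2003). At 4-fold, 0 of the 8 genes were apart in any comparison of libraries. Of all 10710 genes, 2 to 213 were, by comparison and direction. Other scalings and minimum levels kept the 2-fold counts for the 8 genes within 1.5 times of those given. Over all genes, a minimum of 1 CPM gave 656 higher and 774 lower in course 1 (396 and 449 at 5 CPM), 484 and 561 in course 3 (239 and 251), and 576 and 995 in course 5 (317 and 527). It gave 698 and 835 for course 3 against 1 (418 and 516), 1514 lower for course 5 against 1 (973), and 50 and 286 for course 5 against 3 (8 and 98). A minimum of 10 CPM gave 155 lower in course 3 against the parental library and 5 higher in course 5 against course 3. With the longest transcript, FLT3LG averaged 0.462 RPKM in place of 0.211. No paired analysis was possible because each course has 1 library. The DMSO libraries are all numbered replicate 1 and the parental library replicate 2. The labels do not say that these numbers tie libraries together. Depth was no limit for 7 of the genes, which had at least 628 counts in each library, while FLT3LG had 22 to 47.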
